A study of Saccharomyces cerevisiae with 25 samples.

Results

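The mRNA response of yeast to tunicamycin (Tm) was compared between 2 strains that differ in the ribosomal protein eS7A. The eS7A-4KR cells express an HA-tagged eS7A in which the 4 lysines that the E3 ligase Not4 ubiquitinates are replaced by arginine, from the plasmid pRS315-RPS7a-4KR-3HA. The eS7A-WT cells express the unmutated tagged protein from pRS315-RPS7a-3HA. Both strains are W303-1a derivatives (MATa ade2 his3 leu2 trp1 ura3 can1) with both chromosomal eS7 genes deleted (RPS7a::HisMX6 RPS7b::natNT2), so that the plasmid is their source of eS7 at both times. Log-phase cells were taken before Tm (0 h) and after 4 h in 1 µg/ml of it. All 7 RNA-seq libraries of these strains, of the 25 libraries in the series, were used: 2 of eS7A-4KR at 0 h, 2 of eS7A-4KR at 4 h, 1 of eS7A-WT at 0 h and 2 of eS7A-WT at 4 h. Libraries of a group come from independent cultures according to the study. They held 32353486 to 49246452 counted reads, and levels are given as counts per 1000000 reads after TMM normalization (cpm). RPS7B, the deleted paralog, had 5.31 and 4.34 cpm in eS7A-4KR cells at 0 h and 2.23 and 3.26 cpm at 4 h, against 9.05 cpm in eS7A-WT cells at 0 h and 0.964 and 1.23 cpm at 4 h, while unmodified W303 cells had 310.4 and 369 cpm at 0 h and 16.4 cpm at 4 h. The deletion is thus visible in all 7 libraries, but since both strains carry it, it does not tell one from the other, and the 4 substitutions are not visible in gene counts. The mating type was checked with STE2, the α-factor receptor of MATa cells, which had 67.4 to 343 cpm, and with MF(ALPHA)1, an α-cell gene, which had 0.245 to 1.28 cpm. The other markers looked at were less clear. MFA1, an a-cell gene, had only 4.5 to 12.2 cpm. STE3, the receptor of α cells, had 1.1 to 2.09 cpm in eS7A-4KR cells. In eS7A-WT cells STE3 had 1.69 cpm at 0 h and 7.97 and 9.0 cpm at 4 h.

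Tm blocks the first step of protein N-glycosylation, and proteins that misfold in the endoplasmic reticulum (ER) in consequence activate the unfolded protein response (UPR). In yeast the sensor Ire1 then splices HAC1 mRNA, and the Hac1 transcription factor raises the mRNAs of ER chaperones, of enzymes of protein folding and of ER-associated degradation. Yeast cells that stop growing under stress also lower the mRNAs of ribosomal proteins and ribosome biogenesis factors, and raise those of protective genes, many of them under the transcription factors Msn2 and Msn4. Ubiquitination of eS7A by Not4 acts on translation and mRNA quality control at the ribosome, and the comparison asks which functions respond less or more at the mRNA level when it cannot take place.

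The mRNA response to Tm was smaller in eS7A-4KR cells than in eS7A-WT cells for most of the genes that changed, in both directions. The response of a gene is its log2 change at 4 h against 0 h, and the response difference is the response in eS7A-4KR minus that in eS7A-WT, so that a positive value stands for a larger rise or a smaller fall in eS7A-4KR cells. Each adjusted p is that of the quasi-likelihood test in edgeR, adjusted after Benjamini and Hochberg over all genes tested, with a threshold of 0.01. Across 6066 genes the standard deviation of the log2 response was 0.58 in eS7A-4KR and 1.45 in eS7A-WT. The response passed the threshold for 3088 genes in eS7A-4KR cells (50.9%; 1555 up and 1533 down) and for 4259 in eS7A-WT cells (70.2%; 2120 up and 2139 down). Of the 4259 genes called in eS7A-WT, 3751 had the same sign in eS7A-4KR and 4017 a smaller change. The reverse did not hold, since of the 3088 genes called in eS7A-4KR, 665 had a smaller change in eS7A-WT. Across genes, which are not independent replicates, the 2 responses had a Pearson r of 0.78 and a Spearman rho of 0.79.

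The response difference itself passed the threshold for 3021 genes (49.8% of those tested), 1616 of them higher in eS7A-4KR (26.6%) and 1405 lower (23.2%). All 3021 kept their sign in each of the 8 combinations of 1 library per group. These combinations reuse the libraries that gave the calls, and all 8 hold the same eS7A-WT 0 h library, so they are no separate check. A difference of at least 1 on the log2 scale was called for 793 genes higher in eS7A-4KR (13.1%) and 534 lower (8.8%). In 2805 of the 3021 genes the larger of the responses was a called change in eS7A-WT, a rise in 1306 and a fall in 1499. Only 173 of the 3021 had a called response in eS7A-4KR that was larger than that in eS7A-WT. The split of the calls depends on the scaling. With libraries scaled by total counts the median difference of all genes shifts by −0.48, and 880 genes are higher and 3008 lower. The counts of a list under total counts are to be read beside these. The differences given here are relative to the TMM scaling, under which the median gene differs by −0.03. The eS7A-WT 0 h group has 1 library and is assumed to vary like the other groups.

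**Figure D1:**
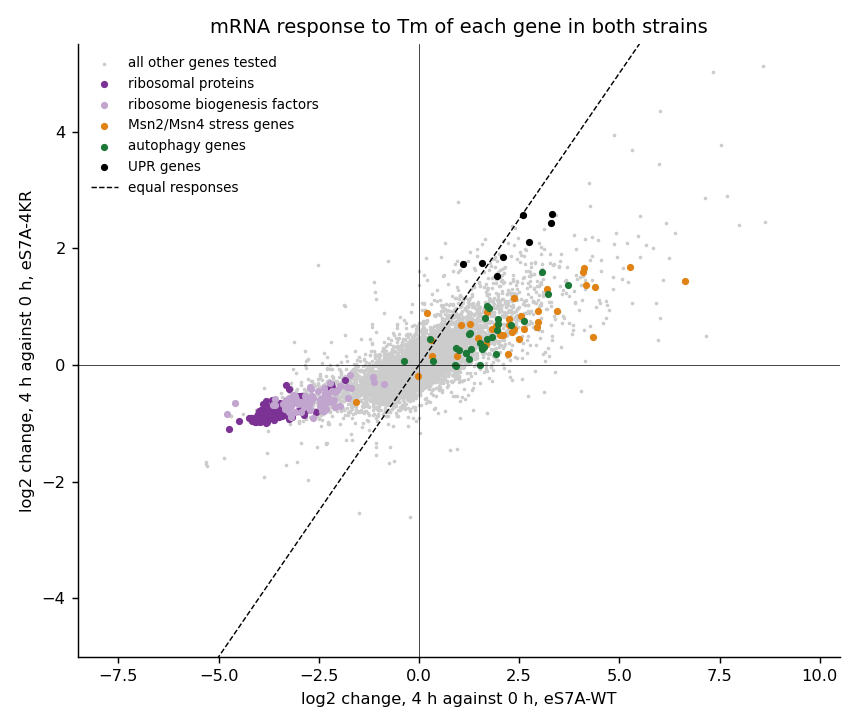
Each point is 1 of 6066 genes, with its log2 mRNA change at 4 h against 0 h in eS7A-WT cells on the x axis and in eS7A-4KR cells on the y axis, and the dashed line marks equal responses. Ribosomal proteins lie near −3.7 on the x axis and −0.8 on the y axis, stress genes spread to the right below the line, and the 8 UPR genes differ from it by less than 1.

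The largest group with a higher response in eS7A-4KR was the translation machinery. All 56 measured genes of the small ribosomal subunit and all 82 of the large subunit were called higher in eS7A-4KR, each by more than 1 on the log2 scale, with medians of 2.89 and 2.91. Their mRNAs fell in both strains, with a median response of −0.83 in eS7A-4KR and −3.71 in eS7A-WT for the small subunit and −0.78 and −3.66 for the large one. Together the 138 genes took 9.59% and 10% of the counted reads in eS7A-4KR cells at 0 h and 6.59% and 6.30% at 4 h, against 20.3% in eS7A-WT cells at 0 h and 2.58% and 2.56% at 4 h. The eS7A-WT cells thus stood above eS7A-4KR before Tm and below them afterwards, without overlap at either time. RPS22A (YJL190C, chrX:74910-75302), which encodes uS8, had 638 and 664 cpm in eS7A-4KR cells at 0 h and 314 and 354 cpm at 4 h, against 1764 cpm in eS7A-WT cells at 0 h and 79.5 and 76.4 cpm at 4 h. Its response differed by 3.54 ± 0.11 (SE; adjusted p = 2.41e-15). RPL9A (YGL147C), which encodes uL6, differed by 3.63 ± 0.10, RPS9B by 3.32 ± 0.10, RPL12A by 3.28 ± 0.10 and RPL31B by 3.25 ± 0.10. Many ribosomal protein genes come in near-identical pairs, and how reads shared by a pair were assigned is not stated. The plasmid-borne RPS7A followed the others, with 1569.9 and 1556 cpm in eS7A-4KR cells at 0 h and 899.6 and 792 cpm at 4 h, against 2549.6 cpm in eS7A-WT cells at 0 h and 285 and 284 cpm at 4 h and a difference of 2.28 ± 0.11.

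Ribosome biogenesis factors, which process and assemble pre-ribosomes, behaved likewise: all 73 on the list were higher in eS7A-4KR, 70 of them by at least 1, with a median difference of 2.07 (responses of −0.61 in eS7A-4KR and −2.67 in eS7A-WT). The 2 genes with the largest positive differences that the rule named were among them. DBP2 (YNL112W, chrXIV:413639-416281), an RNA helicase of the DEAD-box family, had 89.8 and 90.0 cpm in eS7A-4KR cells at 0 h and 52.6 and 48.3 cpm at 4 h, against 268 cpm in eS7A-WT cells at 0 h and 9.92 and 9.42 cpm at 4 h. The response differed by 3.96 ± 0.11 (SE; adjusted p = 1.53e-15), with a fall of 1.78-fold in eS7A-4KR and 27.7-fold in eS7A-WT. NSR1 (YGR159C, chrVII:806412-807656), a nucleolar protein of pre-rRNA processing, had 154 and 151 cpm in eS7A-4KR cells at 0 h and 104 and 91.4 cpm at 4 h, against 511 cpm in eS7A-WT cells at 0 h and 19.7 and 22.6 cpm at 4 h, and its difference was 3.95 ± 0.11 (adjusted p = 2.34e-15). Both fell in each strain, and in each strain the 0 h and 4 h libraries were apart. NOP1, the fibrillarin that methylates rRNA, differed by 3.01 ± 0.10 and the helicase HAS1 by 2.96 ± 0.10.

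Translation factors followed with 35 of 40 higher in eS7A-4KR and a median of 1.35. YEF3 (YLR249W), the fungal elongation factor eEF3, had 3389.9 and 3301 cpm in eS7A-4KR cells at 0 h and 1825 and 1752 cpm at 4 h, against 8644 cpm in eS7A-WT cells at 0 h and 889 and 894 cpm at 4 h and differed by 2.37 ± 0.11 (adjusted p = 1.75e-13). The eEF1B subunits TEF4 and EFB1 differed by 2.32 ± 0.10 and 2.10 ± 0.11. The 1 factor called lower was HEF3 (YNL014W), the paralog of YEF3, with 13.4 and 12.3 cpm in eS7A-4KR cells at 0 h and 14.7 and 12.1 cpm at 4 h, against 5.13 cpm in eS7A-WT cells at 0 h and 12.6 and 12.7 cpm at 4 h and a difference of −1.25 ± 0.19 (adjusted p = 1.31e-05). HEF3 rose in eS7A-WT and had a response of 0.05 in eS7A-4KR that did not pass the threshold. On the list of eS7 ubiquitination and ribosome quality control, 11 of 31 were higher and 1 was lower, beside 26.6% and 23.2% over all genes. Its median of 0.24 changes sign to −0.24 under total counts, with 4 higher and 13 lower. Its largest differences were those of ASC1, a ribosome-bound scaffold (3.11 ± 0.11) and RPS7A. The few reads on the deleted RPS7B are no separate result, and their source was not tested. SSB1, the Hsp70 that binds nascent chains on the ribosome, went with them at 2.66 ± 0.12 (adjusted p = 1.43e-13).

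The mitochondrial ribosome is made of other genes. Of its 63 measured proteins 19 were higher in eS7A-4KR, near the 26.6% over all genes, and none lower, with a median of 0.22. Under total counts 1 higher and 20 lower were called, with a median of −0.26. RSM26 had the largest difference on the list (0.92 ± 0.11). The strains differed in level instead, with medians of 0.62 at 0 h and 0.77 at 4 h for eS7A-4KR minus eS7A-WT. The 18 ORFs of the mitochondrial genome went the other way. Summed, they had 1940 and 2090 cpm in eS7A-4KR cells at 0 h and 1580 and 2800 cpm at 4 h, against 13000 cpm in eS7A-WT cells at 0 h and 18000 and 16900 cpm at 4 h. W303 cells had 13300 and 11200 cpm at 0 h and 12800 cpm at 4 h, so the eS7A-4KR libraries were low at both times. The median level difference was −2.43 at 0 h and −3.12 at 4 h, whereas the response difference had a median of −0.18 with 2 ORFs called, both lower. The part of this difference in level in the other results was not tested.

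**Figure D2:**
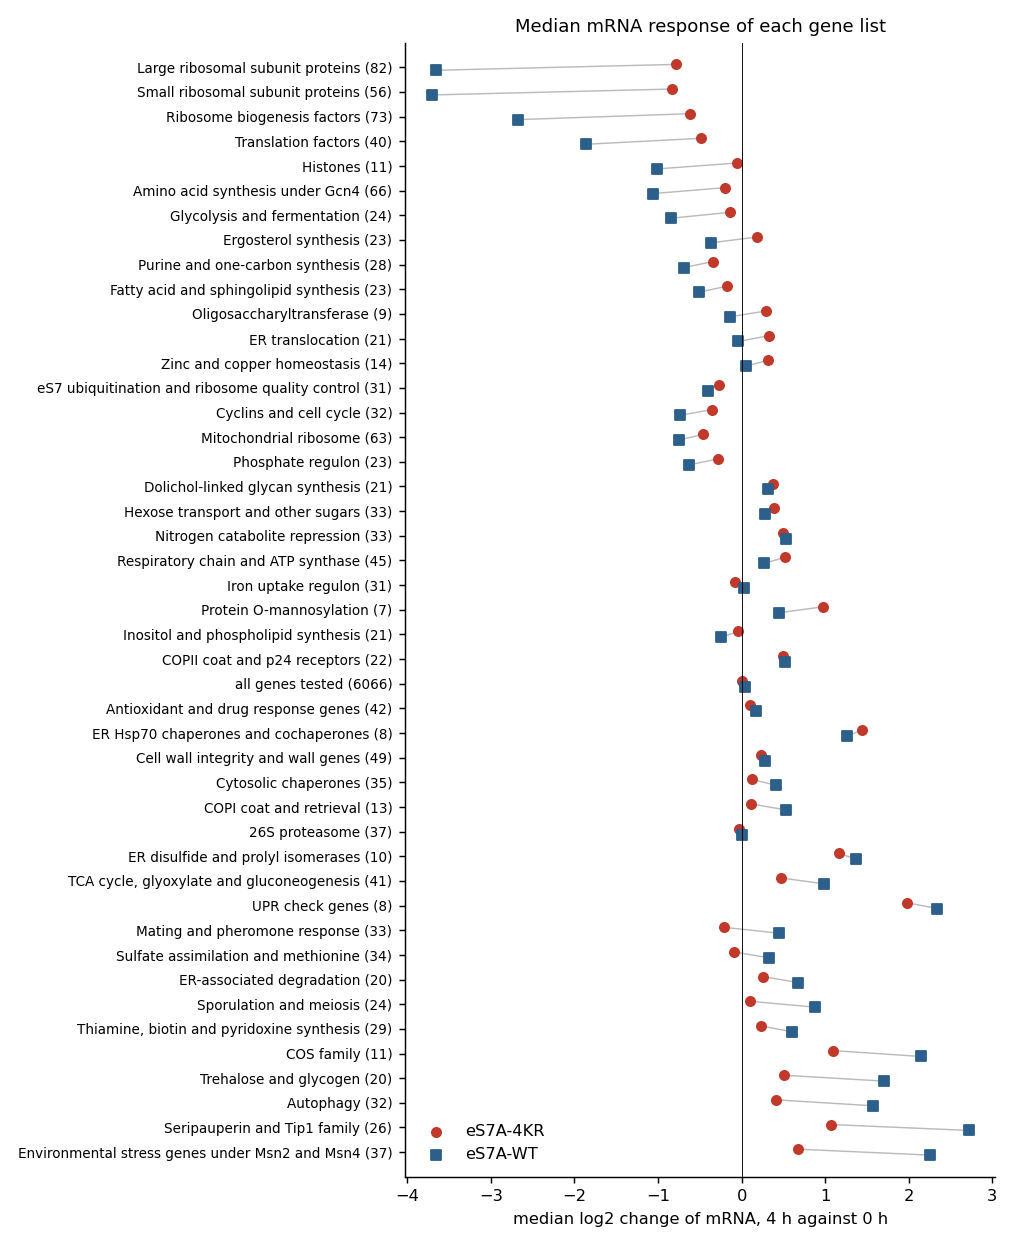
For each gene list (number of genes tested in parentheses) the median log2 mRNA change at 4 h against 0 h is shown for eS7A-4KR (red circles) and eS7A-WT (blue squares), ordered by the median difference. The squares of the ribosomal, stress, trehalose and autophagy lists lie farther from 0 than the circles, while those of ER chaperones and of the proteasome lie close to the circles under TMM scaling.

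Biosynthetic genes of growing cells also fell less in eS7A-4KR. Among genes of amino acid synthesis under the activator Gcn4, 53 of 66 were higher and 1 lower, with a median of 0.86 (responses of −0.20 in eS7A-4KR and −1.06 in eS7A-WT), and 33 higher and 7 lower under total counts. ARG1 (YOL058W), argininosuccinate synthase, had 49.6 and 46.4 cpm in eS7A-4KR cells at 0 h and 48 and 44 cpm at 4 h, against 101 cpm in eS7A-WT cells at 0 h and 10.8 and 11.9 cpm at 4 h. It did not pass the threshold in eS7A-4KR, fell in eS7A-WT and differed by 3.08 ± 0.12 (SE; adjusted p = 1.25e-14). LEU9, an α-isopropylmalate synthase, differed by 3.82 ± 0.12, ARO4 of aromatic amino acid synthesis by 2.61 ± 0.10 and ILV5 of branched-chain synthesis by 2.38 ± 0.11. Of the purine and one-carbon list 16 of 28 were higher and 5 lower, led by the CTP synthase URA7 (2.83 ± 0.09), the GMP synthase GUA1 (2.56 ± 0.10) and the IMP dehydrogenase IMD4 (2.40 ± 0.10). Under total counts the purine list had 12 higher and 9 lower. IMD3 and IMD4 are close paralogs whose reads may be shared. Histone genes, transcribed in S phase, were higher for 10 of 11, with HTB2 at 2.04 ± 0.10 and HTA2 at 1.90 ± 0.11. Genes of daughter cell separation, expressed as cells divide, were among the largest of the cell cycle list (15 of 32 higher, 4 lower): EGT2 had 613 and 640.2 cpm in eS7A-4KR cells at 0 h and 371 and 342 cpm at 4 h, against 382 cpm in eS7A-WT cells at 0 h and 39.3 and 41.9 cpm at 4 h and differed by 2.42 ± 0.11, and DSE4 and DSE2 by 2.26 ± 0.10 and 2.20 ± 0.10. The median of that list, 0.24, becomes −0.24 under total counts, with 11 higher and 13 lower, and histones then had 6 higher and 1 lower.

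Lipid genes varied by pathway and scaling. In ergosterol synthesis 16 of 23 genes were higher in eS7A-4KR and none lower, with a median of 0.59, whereas under total counts 8 higher and 4 lower were called, with a median of 0.10. HMG1, an HMG-CoA reductase, had 140.0 and 141 cpm in eS7A-4KR cells at 0 h and 157 and 157 cpm at 4 h, against 297 cpm in eS7A-WT cells at 0 h and 141 and 149.9 cpm at 4 h, and differed by 1.19 ± 0.09 (adjusted p = 9.17e-10). The difference of HMG1 lay at 0 h, where the level of eS7A-4KR minus that of eS7A-WT was −1.08 on the log2 scale, while it was 0.11 at 4 h and not called. Fatty acid and sphingolipid genes were higher for 14 of 23 and lower for 1, among them the elongases ELO3 (2.72 ± 0.09) and ELO2 (1.82 ± 0.09) and AUR1, which makes inositol phosphorylceramide (1.26 ± 0.10). Under total counts that list had 7 higher and 5 lower, with a median of 0.01. Inositol and phospholipid synthesis had 5 higher and 5 lower of 21, near the shares over all genes (26.6% and 23.2%), and 1 higher and 11 lower under total counts. INO1 (YJL153C, chrX:134332-135933), inositol-3-phosphate synthase and a gene induced with the UPR, had 18.7 and 19.3 cpm in eS7A-4KR cells at 0 h and 267 and 254 cpm at 4 h, against 3.18 cpm in eS7A-WT cells at 0 h and 582 and 605 cpm at 4 h. It rose in both strains, by 3.78 in eS7A-4KR and 7.54 in eS7A-WT, and differed by −3.77 ± 0.15 (adjusted p = 7.76e-15). OPI3, a phospholipid methyltransferase, rose less in eS7A-4KR (−1.64 ± 0.11), whereas CDS1, CDP-diacylglycerol synthase, fell less (1.81 ± 0.10).

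Transporters and enzymes of the cell surface held several of the largest positive differences. PHO84 (YML123C, chrXIII:24037-25800), the high-affinity phosphate transporter, had 131 and 131 cpm in eS7A-4KR cells at 0 h and 41 and 37.7 cpm at 4 h, against 196 cpm in eS7A-WT cells at 0 h and 5.1 and 4.87 cpm at 4 h and differed by 3.56 ± 0.11 (SE; adjusted p = 2.41e-15). The acid phosphatase PHO3 differed by 3.66 ± 0.12. The phosphate list was higher for only 8 of 23 and lower for 4, beside 26.6% and 23.2% over all genes. Under total counts that list had 4 higher and 10 lower, beside 880 higher and 3008 lower of all 6066 genes. FET3 (YMR058W), the ferroxidase of high-affinity iron uptake, had 238 and 246 cpm in eS7A-4KR cells at 0 h and 143 and 127 cpm at 4 h, against 348 cpm in eS7A-WT cells at 0 h and 15.3 and 17.6 cpm at 4 h and differed by 3.56 ± 0.11. The iron uptake list had 9 of 31 higher, near the 26.6% over all genes, and 3 lower. Under total counts it had the opposite split of 5 higher and 14 lower, as all genes together also had more lower than higher. The zinc importer ZRT2 differed by 2.11 ± 0.13. Some hexose transporters changed in opposite directions in the strains. HXT7 (YDR342C), a high-affinity glucose transporter, had 255 and 255 cpm in eS7A-4KR cells at 0 h and 514 and 531 cpm at 4 h, against 168 cpm in eS7A-WT cells at 0 h and 46.1 and 46.5 cpm at 4 h. It rose in eS7A-4KR by 1.03 and fell in eS7A-WT (response −1.86), a difference of 2.89 ± 0.10 (adjusted p = 3.26e-15). HXT6, nearly identical to HXT7 and sharing its reads, differed by 2.85 ± 0.10, HXT4 by 2.60 ± 0.10 and HXT3 by 2.37 ± 0.10. On the sugar list of 33 genes 9 were higher, near the 26.6% over all genes, and 1 was lower, against 4 higher and 7 lower under total counts. RSB1, a sphingoid base transporter, and the plasma membrane proteins SFK1 and INA1 were named by the size of their differences, 3.51 ± 0.19, 3.47 ± 0.15 and 3.61 ± 0.11.

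Stress genes made up the main group with a lower response in eS7A-4KR. Of 37 genes under Msn2 and Msn4, 31 were lower and 2 higher, with a median of −1.59 (responses of 0.67 in eS7A-4KR and 2.25 in eS7A-WT). HSP12 (YFL014W, chrVI:107256-107585), a small heat shock protein of membranes, had 213 and 222 cpm in eS7A-4KR cells at 0 h and 298 and 307 cpm at 4 h, against 6.38 cpm in eS7A-WT cells at 0 h and 131 and 129.5 cpm at 4 h. The response of HSP12 differed by −3.87 ± 0.12 (SE; adjusted p = 2.41e-15), while its level was above that of eS7A-WT at both times, by 5.09 at 0 h and 1.22 at 4 h on the log2 scale. MOH1 (YBL049W, chrII:126828-127244), a gene induced on entry into stationary phase, had the largest negative difference that the rule named. It had 12.1 and 11.4 cpm in eS7A-4KR cells at 0 h and 32.6 and 31.3 cpm at 4 h, against 0.587 cpm in eS7A-WT cells at 0 h and 59.4 and 58.1 cpm at 4 h, and its difference was −5.20 ± 0.28 (adjusted p = 2.21e-14). TMA10, a ribosome-associated stress protein, had 28.7 and 30.7 cpm in eS7A-4KR cells at 0 h and 94.7 and 95.5 cpm at 4 h, against 2.03 cpm in eS7A-WT cells at 0 h and 78.3 and 79.1 cpm at 4 h and differed by −3.60 ± 0.17. At 4 h the eS7A-4KR libraries of TMA10 exceeded those of eS7A-WT, so the smaller rise went with a higher starting level. The cytosolic catalase CTT1 differed by −2.02 ± 0.16 and the small heat shock protein HSP26 by −2.51 ± 0.12, and HSP42, from the chaperone list, by −2.68 ± 0.10. The mRNAs of the transcription factors themselves differed by −0.17 for MSN2 and −0.17 for MSN4 and were not called, and both were picked out after their values were seen.

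Genes of reserve carbohydrates and of autophagy followed the stress genes. In trehalose and glycogen metabolism 15 of 20 were lower in eS7A-4KR and none higher, with a median of −1.13. TSL1 (YML100W), a subunit of the trehalose synthase complex, had 223 and 221 cpm in eS7A-4KR cells at 0 h and 453 and 403 cpm at 4 h, against 41.8 cpm in eS7A-WT cells at 0 h and 645 and 688 cpm at 4 h and differed by −3.05 ± 0.11 (adjusted p = 2.02e-14). The trehalose-6-phosphate synthase TPS1 differed by −1.56 ± 0.11 and the glycogen branching enzyme GLC3 by −1.57 ± 0.13. Of the autophagy genes 26 of 32 were lower and 1 higher, with a median of −1.15. ATG8 (YBL078C), the ubiquitin-like protein of the autophagosome membrane, had 13.9 and 13.5 cpm in eS7A-4KR cells at 0 h and 32.1 and 31.3 cpm at 4 h, against 3.64 cpm in eS7A-WT cells at 0 h and 34.7 and 33.4 cpm at 4 h. It rose by 1.21 in eS7A-4KR and 3.22 in eS7A-WT, and the difference of −2.01 ± 0.16 (adjusted p = 8.62e-10) lay at 0 h, where eS7A-4KR was higher by 1.91. ATG39, a receptor of nuclear autophagy, differed by −2.36 ± 0.23 in the same way, whereas ATG19, the receptor of the Cvt pathway, differed by −1.86 ± 0.11 mainly at 4 h (−1.48). Of the tricarboxylic acid cycle, glyoxylate and gluconeogenesis list 19 of 41 were lower and 4 higher, and ADR1, the activator of genes for non-fermentable carbon, differed by −2.50 ± 0.10. In glycolysis 14 of 24 were higher and 5 lower, with a median of 0.60, beside 26.6% and 23.2% over all genes. Under total counts 8 were higher and 6 lower, with a median of 0.12. The 5 lower ones included the glucokinase GLK1 (−2.32 ± 0.12), hexokinase HXK1 (−1.50 ± 0.10) and the minor pyruvate kinase PYK2 (−1.62 ± 0.12). GLK1 overlaps the ORF YCL042W, and reads of the pair cannot be told apart if strand was not used in counting.

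**Figure D3:**
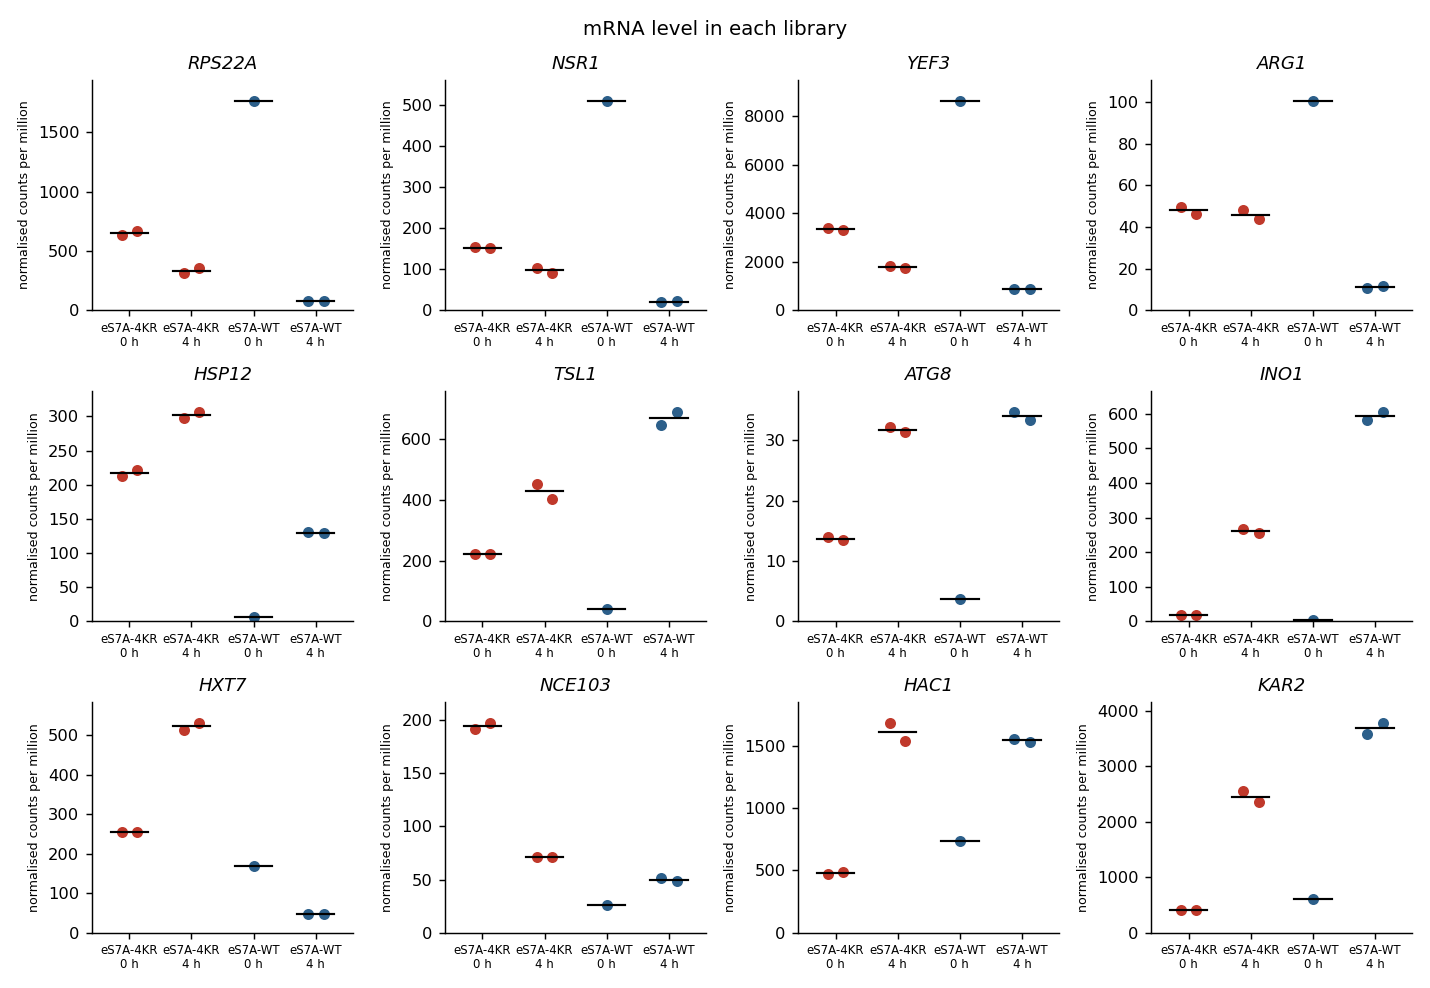
Points are the cpm of single libraries, with bars for the group means, in eS7A-4KR (red; 0 h and 4 h) and eS7A-WT (blue; 0 h and 4 h), on linear axes from 0. RPS22A, NSR1, YEF3 and ARG1 are highest in the eS7A-WT 0 h library, HSP12 is high in eS7A-4KR at both times, and HXT7 and NCE103 change in opposite directions in the strains.

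Where a response differed, the strains could differ before Tm, after it, or at both times. At 0 h 3550 genes (58.5%) differed between the strains and at 4 h 3926 (64.7%). Of the 1616 genes with a higher response in eS7A-4KR, 935 were called at both times, 354 at 0 h only, 313 at 4 h only and 14 at neither, and for 854 of them the 4 h part was the larger. The 1405 genes with a lower response gave 554, 334, 475 and 42, and for 757 the 0 h part was the larger. Ribosomal protein genes were called at both times in opposite directions, lower in eS7A-4KR at 0 h (medians of −1.05 and −1.08 for small and large subunits) and higher at 4 h (1.79 and 1.77). For the Msn2 and Msn4 genes the difference lay at 0 h, with 33 of 37 higher in eS7A-4KR and a median of 1.35. At 4 h the median was −0.07, with 12 higher and 16 lower. Trehalose and glycogen genes had medians of 1.13 at 0 h and −0.07 at 4 h. Autophagy genes differed at both, with 17 of 32 higher at 0 h (median 0.50) and 22 lower at 4 h (median −0.54). The untreated eS7A-4KR cells therefore had less mRNA of ribosomal proteins and more of stress genes than the untreated eS7A-WT cells. All of these values share the 1 library of eS7A-WT at 0 h.

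**Figure D4:**
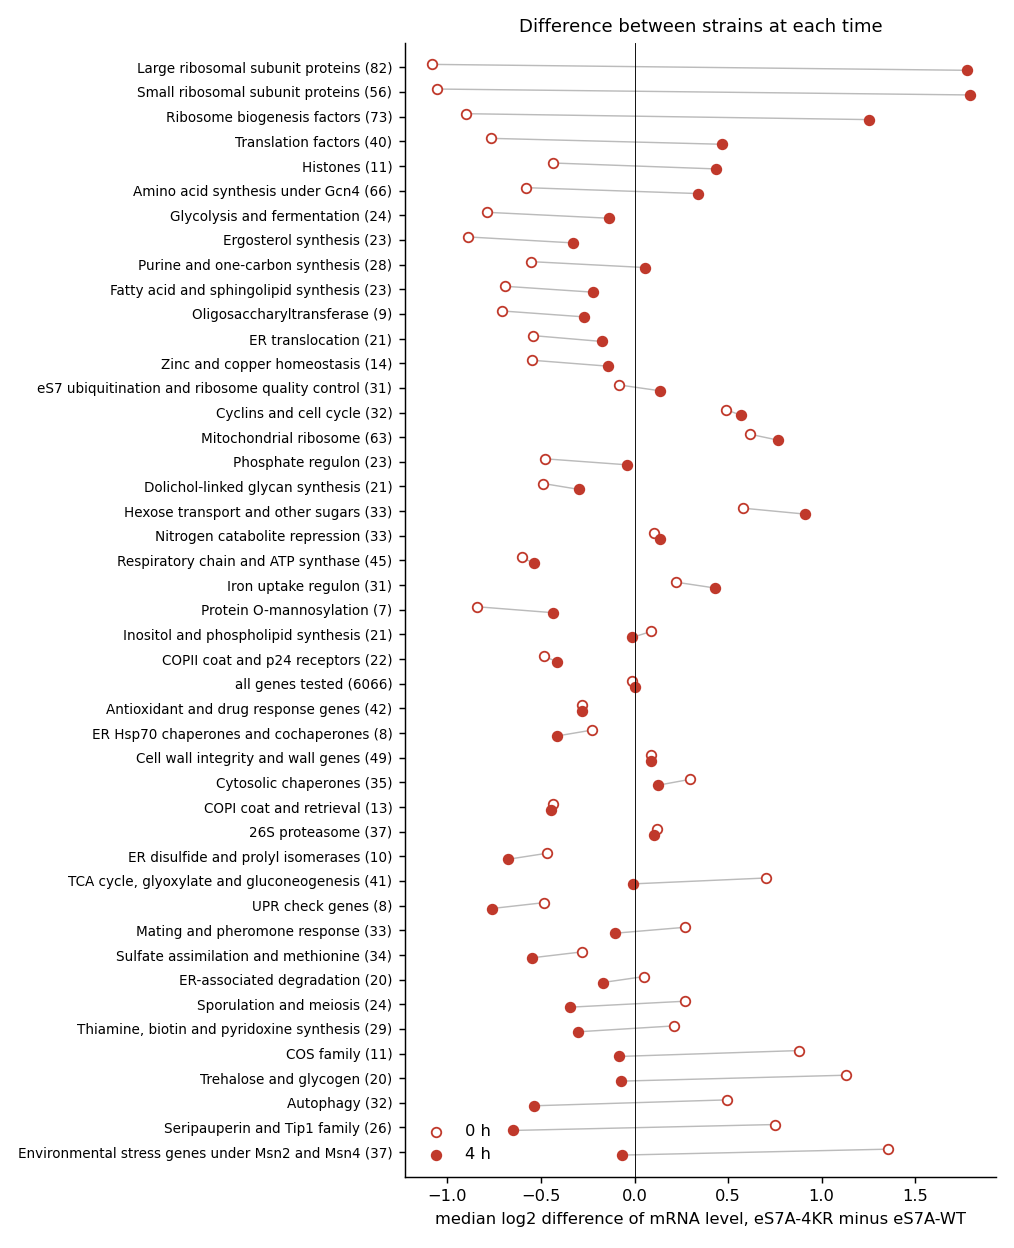
For each gene list the median log2 difference of mRNA level, eS7A-4KR minus eS7A-WT, is shown at 0 h (open circles) and 4 h (filled circles), in the order of the median response difference. The lines of the ribosomal lists cross from about −1.1 to 1.8, and the stress gene line ends near 0 at 4 h.

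UPR genes rose in both strains, and how far their rise differed depends on the scaling. The 8 genes used as a check of the UPR rose in each strain, all 8 past the threshold, with a median response of 1.97 in eS7A-4KR and 2.34 in eS7A-WT. Of these, 4 were lower and 1 higher in the response difference, with a median of −0.34, whereas under total counts 0 higher and 6 lower were called, with a median of −0.82. In level, 5 of the 8 were lower in eS7A-4KR at 0 h and 1 higher, with a median of −0.48. At 4 h 7 were lower and 0 higher, with a median of −0.76. KAR2 (YJL034W, chrX:381327-383375), the ER Hsp70, had 413 and 409 cpm in eS7A-4KR cells at 0 h and 2549 and 2361 cpm at 4 h, against 614 cpm in eS7A-WT cells at 0 h and 3589 and 3785 cpm at 4 h. Its responses of 2.58 and 2.59 differed by −0.01 ± 0.11 (SE; adjusted p = 0.944), but under total counts KAR2 was called lower, at −0.49 (adjusted p = 0.00169). Its level was lower in eS7A-4KR at both times (log2 differences of −0.58 at 0 h and −0.59 at 4 h). PDI1, protein disulfide isomerase, differed by −0.25 ± 0.12 (adjusted p = 0.0835) and EUG1, its homolog, by 0.18 ± 0.10, neither past the threshold. PDI1 passed it at −0.73 under total counts (adjusted p = 8.49e-05) and at −0.35 without replicate 1 of eS7A-4KR at 4 h (adjusted p = 0.00248), and EUG1 was at −0.31 under total counts. ERO1, the oxidase that reoxidises Pdi1, had 130.2 and 138 cpm in eS7A-4KR cells at 0 h and 691 and 757 cpm at 4 h, against 105 cpm in eS7A-WT cells at 0 h and 1042 and 1006 cpm at 4 h and rose less in eS7A-4KR (difference −0.86 ± 0.11, adjusted p = 1.47e-06). SIL1, a nucleotide exchange factor of Kar2, and DER1 of ER-associated degradation also rose less, with differences of −0.74 ± 0.10 and −0.64 ± 0.13. In the fit of all 15 eS7A libraries the calls of ERO1 (−0.90, adjusted p = 0.0366) and SIL1 (−0.78, adjusted p = 0.0149) ended with their size kept. FPR2, a prolyl isomerase of the ER, was also called lower (−0.43 ± 0.11), a call that ended at −0.35 without replicate 2 of eS7A-4KR at 0 h (adjusted p = 0.0326) and at −0.39 without replicate 1 of eS7A-WT at 4 h (adjusted p = 0.0148). LHS1, the second ER Hsp70, had 55.7 and 57.2 cpm in eS7A-4KR cells at 0 h and 188 and 188 cpm at 4 h, against 89.8 cpm in eS7A-WT cells at 0 h and 193 and 189 cpm at 4 h, and rose more in eS7A-4KR, by 0.65 ± 0.09 (adjusted p = 4.11e-06), which is 0.17 and not called under total counts, nor called in the fit of 15 libraries (0.61, adjusted p = 0.0112).

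HAC1 mRNA itself rose more in eS7A-4KR cells. It (YFL031W, chrVI:75179-76147) had 468 and 482 cpm in eS7A-4KR cells at 0 h and 1682 and 1534 cpm at 4 h, against 737 cpm in eS7A-WT cells at 0 h and 1556 and 1528 cpm at 4 h, and at 4 h the libraries of the strains overlapped. The response difference of 0.69 ± 0.11 (SE; adjusted p = 1.52e-05) lay at 0 h, where the level in eS7A-4KR was lower (log2 difference −0.63). Counts on the ORF do not tell spliced from unspliced HAC1. IRE1, the sensor, had 46.4 and 40.2 cpm in eS7A-4KR cells at 0 h and 37.7 and 36.6 cpm at 4 h, against 37.8 cpm in eS7A-WT cells at 0 h and 28.3 and 27.1 cpm at 4 h and a difference of 0.23 ± 0.12 (adjusted p = 0.116) that was not called. HNT1, an mRNA that the UPR lengthens and represses in translation, differed by 0.26 ± 0.10 (adjusted p = 0.0272), which was not called either and passed the threshold at 0.31 (adjusted p = 0.00241) without replicate 2 of eS7A-4KR at 4 h. The call of HAC1 ended under total counts, at 0.21 (adjusted p = 0.143), and in the fit of 15 libraries, at 0.66 (adjusted p = 0.104), and under total counts IRE1 and HNT1 were at −0.25 and −0.22.

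Other functions of the ER and the early secretory pathway differed by small amounts in either direction. In ER-associated degradation 11 of 20 genes were lower in eS7A-4KR and 2 higher, with a median of −0.47, and 16 were lower under total counts. USA1, a scaffold of the Hrd1 ligase, had 43 and 42.6 cpm in eS7A-4KR cells at 0 h and 72.1 and 71.6 cpm at 4 h, against 39.4 cpm in eS7A-WT cells at 0 h and 108 and 115 cpm at 4 h and differed by −0.76 ± 0.10, and NPL4, a cofactor of Cdc48, by −0.76 ± 0.11, whereas the mannosidase MNL1 was higher by 1.12 ± 0.12. The oligosaccharyltransferase, which attaches the glycans whose synthesis Tm blocks, was higher for 6 of 9 subunits with a median of 0.44, while under total counts none was higher and 2 were lower, with a median of −0.05. Its catalytic subunit STT3 had 239 and 243 cpm in eS7A-4KR cells at 0 h and 314 and 277 cpm at 4 h, against 399.9 cpm in eS7A-WT cells at 0 h and 283 and 305 cpm at 4 h and differed by 0.74 ± 0.11 (adjusted p = 7.84e-06). The calls of STT3 and PMT2 ended under total counts, at 0.26 and 0.35. Of the protein O-mannosyltransferases PMT4 differed by 1.42 ± 0.10 and PMT2 by 0.83 ± 0.11, and 3 of 7 were called, all higher, against 1 higher and 4 lower under total counts. Over all 6066 genes 49.8% were called (26.6% higher), and under total counts 880 were higher and 3008 lower. The calls on this short list are thus not far from those over all genes. ER translocation had 11 of 21 higher and 1 lower, led by SSH1, a homolog of the Sec61 channel (1.65 ± 0.09), and its median of 0.41 is −0.07 under total counts, with 3 higher and 4 lower. The COPI coat and retrieval list had 6 lower and 2 higher of 13, and 10 lower and none higher under total counts. Of the 26S proteasome 2 genes were higher and 3 lower of 37, with a median of −0.10 and values between −0.66 and 0.50. Under total counts none of them was higher and 32 were lower, with a median of −0.59, beside −0.51 for all genes. RPN4, a transcription factor of proteasome genes on that list, had 108 and 106 cpm in eS7A-4KR cells at 0 h and 120.2 and 126 cpm at 4 h, against 58.2 cpm in eS7A-WT cells at 0 h and 106 and 105 cpm at 4 h and differed by −0.66 ± 0.09 (adjusted p = 5.75e-06).

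Sulfur, vitamin and subtelomeric genes added to the lower responses. On the sulfate and methionine list 16 of 34 were lower and 7 higher. MET17 (YLR303W), the homocysteine synthase, had 202 and 207 cpm in eS7A-4KR cells at 0 h and 211 and 198 cpm at 4 h, against 344 cpm in eS7A-WT cells at 0 h and 1076 and 1122 cpm at 4 h. It rose in eS7A-WT and not in eS7A-4KR, a difference of −1.68 ± 0.10 (SE; adjusted p = 4.11e-11), and it overlaps the ORF YLR302C. STR3, a cystathionine β-lyase, differed by −3.25 ± 0.15, while SAM4, which recycles S-adenosylmethionine, was higher by 1.52 ± 0.10. Of the thiamine, biotin and pyridoxine genes 15 of 29 were lower and 4 higher. THI5 (YFL058W), of thiamine precursor synthesis, had 19.7 and 22.6 cpm in eS7A-4KR cells at 0 h and 37.9 and 32.1 cpm at 4 h, against 5.01 cpm in eS7A-WT cells at 0 h and 121 and 123 cpm at 4 h and differed by −3.88 ± 0.16. THI12, THI13 and THI11, with differences of −3.87 ± 0.15, −3.78 ± 0.20 and −3.50 ± 0.16, are nearly identical to THI5, so these are not separate results. The COS genes of chromosome ends were lower for 10 of 11 (median −0.99) and the seripauperin and Tip1 family for 15 of 26 (median −1.31), again families with shared reads. The family member TIP1, a cell wall mannoprotein, was the 1 called higher, with 194 and 194 cpm in eS7A-4KR cells at 0 h and 229 and 216 cpm at 4 h, against 132 cpm in eS7A-WT cells at 0 h and 24.7 and 26.5 cpm at 4 h and a difference of 2.57 ± 0.10.

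Other genes named by the size of a negative difference have single functions. RTA1, involved in resistance to 7-aminocholesterol, had 5.06 and 5.41 cpm in eS7A-4KR cells at 0 h and 25.6 and 24.7 cpm at 4 h, against 1.66 cpm in eS7A-WT cells at 0 h and 142 and 138 cpm at 4 h and differed by −4.13 ± 0.19 (adjusted p = 3.69e-14). YPT53, a Rab GTPase of endocytosis, differed by −4.42 ± 0.58, and SHH3, a homolog of a succinate dehydrogenase subunit, by −4.63 ± 0.72, from 7 and 5 counts in the eS7A-WT 0 h library. RTC3 and MNC1 differed by −3.80 ± 0.16 and −3.83 ± 0.26. Among wall genes the glucan synthase subunit GSC2 had 295 and 282 cpm in eS7A-4KR cells at 0 h and 933 and 900.4 cpm at 4 h, against 56.2 cpm in eS7A-WT cells at 0 h and 1899 and 1956 cpm at 4 h, and differed by −3.43 ± 0.11 (adjusted p = 3.26e-15). The wall list had 14 higher and 15 lower of 49, beside 26.6% and 23.2% over all genes. Under total counts it had 8 higher and 26 lower, near the shares over all genes under that scaling (880 higher and 3008 lower of 6066). Of the mating genes 12 of 33 were lower and 7 higher, beside the same shares over all genes, with FUS1, a gene of cell fusion, at −1.64 ± 0.16.

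A minority of genes responded more in eS7A-4KR cells, or in the opposite direction. The genes of this paragraph were chosen after their values were seen, by the excess of the eS7A-4KR response or by opposite called signs. Of the 173 genes with a called difference and a larger called response in eS7A-4KR, 105 rose and 68 fell there. PXA1, a subunit of the peroxisomal fatty acid transporter, had 10.4 and 10.3 cpm in eS7A-4KR cells at 0 h and 39.7 and 48.1 cpm at 4 h, against 10.1 cpm in eS7A-WT cells at 0 h and 15.3 and 16.4 cpm at 4 h and differed by 1.44 ± 0.16 (SE; adjusted p = 2.6e-07). CTA1, the peroxisomal catalase, differed by 1.42 ± 0.30 and had a response of 1.54 in eS7A-4KR and 0.12 in eS7A-WT. ENA1, a plasma membrane sodium pump, had 185 and 188 cpm in eS7A-4KR cells at 0 h and 317 and 293 cpm at 4 h, against 204 cpm in eS7A-WT cells at 0 h and 201 and 210.1 cpm at 4 h and responses of 0.71 in eS7A-4KR, which was called, and 0.01 in eS7A-WT, which was not. The difference of 0.70 ± 0.10 was no longer called under total counts (0.22, adjusted p = 0.116). CTR1, the copper transporter, fell in both strains and more so in eS7A-4KR, with 108 and 114 cpm in eS7A-4KR cells at 0 h and 40.1 and 43.2 cpm at 4 h, against 221 cpm in eS7A-WT cells at 0 h and 135 and 134 cpm at 4 h and a difference of −0.69 ± 0.10. Both responses were called with opposite signs for 78 genes, of which 55 rose in eS7A-4KR and 23 fell, and the response difference was called for all 78. GDH1, the NADP-dependent glutamate dehydrogenase, had 131 and 127 cpm in eS7A-4KR cells at 0 h and 295 and 268 cpm at 4 h, against 406 cpm in eS7A-WT cells at 0 h and 185 and 200.2 cpm at 4 h, with responses of 1.12 and −1.08 and a difference of 2.20 ± 0.10. NCE103 (YNL036W, chrXIV:559814-560479), carbonic anhydrase, had 191 and 197 cpm in eS7A-4KR cells at 0 h and 71.1 and 71.6 cpm at 4 h, against 25.7 cpm in eS7A-WT cells at 0 h and 51.2 and 48.3 cpm at 4 h. It fell in eS7A-4KR (response −1.45) and rose in eS7A-WT by 0.95, a difference of −2.40 ± 0.10 (adjusted p = 8.63e-14), with all eS7A-4KR libraries above all those of eS7A-WT.

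W303 cells, which carry both chromosomal eS7 genes, give a second reference, with 2 RNA-seq libraries at 0 h and 1 at 4 h and no test. Of the 1616 genes higher in eS7A-4KR, the W303 response was nearer to that of eS7A-WT than to that of eS7A-4KR for 1447 (89.5%), and of the 1405 lower ones for 1257 (89.5%), compared with 4663 of all 6066 (76.9%). Responses set beside W303 are differences of mean log2 cpm with 0.5 added, after TMM normalization of all 10 libraries of the 3 strains. They are not the edgeR responses given elsewhere. On this scale the median response of the 1616 genes was −0.37 in eS7A-4KR, −1.24 in eS7A-WT and −1.31 in W303, and that of the 1405 was 0.28, 1.16 and 1.29. At 0 h the eS7A-WT library was the nearer of the strains to W303 for 1224 of the 1616 (75.7%) and 987 of the 1405 (70.2%), against 69.1% of all genes. RPS22A had 1134 and 1405 cpm at 0 h and 30.1 cpm at 4 h in W303, and HSP12 1.94 and 1.82 cpm at 0 h and 390.0 cpm at 4 h. Ribosomal protein genes of the small subunit had a median response of −4.44 in W303, Msn2 and Msn4 genes one of 2.75 and the 8 UPR genes one of 2.25. Single genes departed: MET6, methionine synthase, had 174 and 176 cpm in eS7A-4KR cells at 0 h and 108 and 105 cpm at 4 h, against 476 cpm in eS7A-WT cells at 0 h and 449 and 441 cpm at 4 h, while W303 had 2456 and 2531 cpm at 0 h and 538 cpm at 4 h. OPI3 and INO1 departed too, with W303 responses nearer to those of eS7A-4KR. OPI3 had a response of 0.68 in W303, 2.16 in eS7A-4KR and 3.84 in eS7A-WT on the scale used beside W303. For INO1 the responses were 5.30, 3.69 and 7.33.

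Ribosome footprints of the same strains and times, from 8 other libraries, gave mostly the same directions. The footprint response difference was called for 2128 of 5570 genes (38.2%), 1151 higher and 977 lower in eS7A-4KR, a split that becomes 576 and 1320 under total counts. Of the 2945 genes called in mRNA and tested in footprints, 2859 had the same sign (97.1%), against 4803 of all 5558 tested in both (86.4%), and 1866 were also called in footprints. All 56 small and 82 large subunit genes were called higher, with medians of 2.75 and 2.79, and 28 of 37 Msn2 and Msn4 genes lower, with a median of −2.35. Footprint lengths kept by the authors differed between the strains. In eS7A-WT they also differed between 0 h and 4 h, whereas eS7A-4KR had the same range at both times. A change with time in only 1 strain can enter the footprint response difference, and its part there was not tested. COS111, HAC1, HEF3 and SPP382 were called in both with opposite signs, and they are all named. COS111 lost its mRNA call without replicate 2 of eS7A-4KR at 0 h, at −0.45. For HAC1 the footprints, here per 1000000 counted footprints without TMM factors, were 32.6 and 28.7 cpm in eS7A-4KR cells at 0 h and 686 and 652 at 4 h, against 9.39 and 7.16 cpm in eS7A-WT cells at 0 h and 2720 and 3180 at 4 h. The footprint response of HAC1 was thus lower in eS7A-4KR (difference −3.39 ± 0.43, SE; adjusted p = 1.65e-11), beside a higher mRNA response. HNT1 had 111 and 107 cpm in eS7A-4KR cells at 0 h and 65.4 and 68.2 at 4 h, against 131 and 127 cpm in eS7A-WT cells at 0 h and 17 and 12.4 at 4 h, a difference of 3.12 ± 0.23 (adjusted p = 8.24e-26) beside the mRNA difference that was not called. SPP382, a splicing factor, differed by 3.16 in footprints and −0.72 in mRNA, and HEF3 by 3.18 and −1.25. In the fit of all 15 eS7A libraries the mRNA call of SPP382 ended, at −0.76 (adjusted p = 0.0424). HEF3 is the paralog of YEF3, whose footprint difference was 2.74. The deleted RPS7B had 257 and 264 footprints per 1000000 in eS7A-WT cells at 0 h, beside 9.05 cpm in mRNA. Whether reads shared by paralogs enter the footprint values of HEF3 was not tested.

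**Figure D5:**
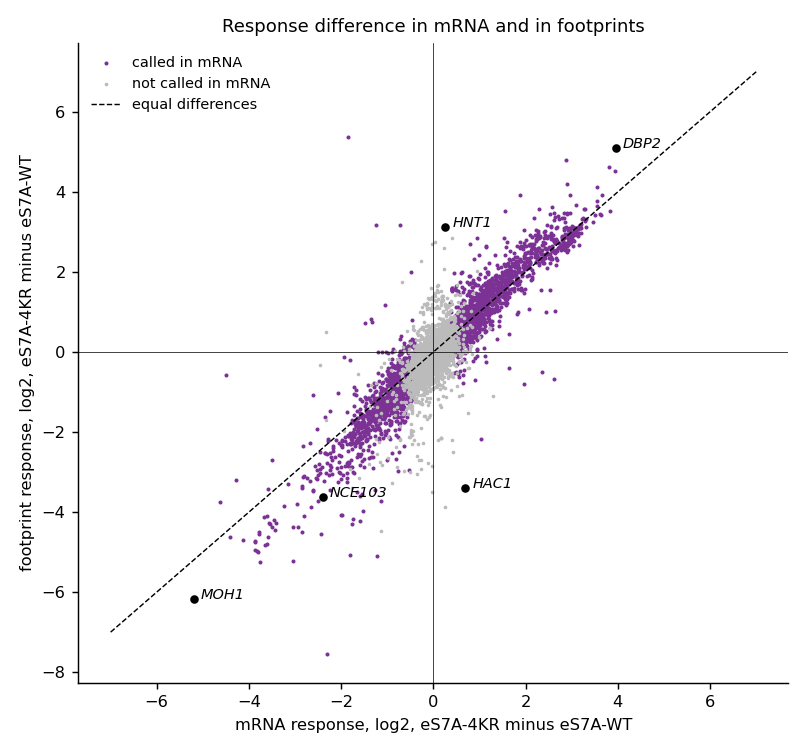
Each point is 1 of 5558 genes, with the response difference (log2, eS7A-4KR minus eS7A-WT) in mRNA on the x axis and in footprints on the y axis. Purple points were called in mRNA and grey points were not, and the dashed line marks equal differences. Most purple points lie in the lower left and upper right, whereas HAC1 and HNT1 lie far from the line.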

How the data were processed

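The authors sequenced rRNA-depleted RNA and ribosome footprints, mapped the reads and deposited raw read counts per ORF, with the number of codons beside them. Per the labels, sacCer3, CASAVA 1.8, Bowtie2 2.0.6 and TopHat2 2.0.7 were used, and by the study's methods RNA reads were placed at an offset of 15 nt. Whether counting used strand is not given in the sources used here. From the deposited counts, the 7 RNA-seq libraries were fitted in edgeR 4.0.16 (R 4.3.3) with TMM normalization, the quasi-likelihood test and Benjamini-Hochberg adjustment, for genes averaging 10 or more counts a library. The strain by time interaction is the response difference. The 8 footprint libraries were fitted likewise and the 3 W303 RNA-seq libraries were not tested. Replicate pairs differed by more than sampling noise. Named genes are those called, with a mean of at least 50 counts and 1 sign in all 8 single-library combinations, that had the 12 largest differences in each direction, up to 4 called members of each list, and the eS7, HAC1, HNT1, IRE1 and UPR genes. The members and lists were chosen with earlier results of these data known. Scripts were tested on simulated data. Other times were not analysed here. Alternatives were other normalizations, filters, tools (DESeq2 1.42.0, limma 3.58.1), a replicate block and leaving out each replicate.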

Additional observations from a re-analysis of the deposited data

Results flagged for a closer look

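The response to Tm differed between the strains by a test of the difference itself for 1616 genes with a higher mRNA response in eS7A-4KR and 1405 with a lower one. In footprints the same test gave 1151 higher and 977 lower. For 78 genes the mRNA change was called in each strain with opposite signs, and the difference between the strains was called for every one of them.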

How the results depend on the processing

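The count of 3021 genes with a different mRNA response was within 1.5 times under DESeq2 size factors (2983), total counts (3888), no filter (3080), a stricter filter of 10 counts in each library (3015), DESeq2 (2850), the newer quasi-likelihood method (3015), limma-voom (3019) and a threshold of 0.05 (3700), and ranged over 2475 to 3508 when 1 replicate was left out. The footprint count of 2128 ranged over 1750 to 2021. With all 15 eS7A libraries in 1 fit, which share an estimate of the spread with the footprints, 1934 of 5558 genes differed in response, 1715 responded in eS7A-4KR and 2348 differed at 0 h. In that fit the number of called members moved beyond the set margin for 24 of the 44 lists, and the median difference for 4. Under total counts the number of called members moved for 8 lists and the median for all 44. Requiring a difference of at least 1 on the log2 scale, added after the data were seen, left 1327 genes for the response difference, 380 for the eS7A-4KR response, 2165 for the eS7A-WT response, 1043 at 0 h and 1088 at 4 h.

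Under total counts the difference changed sign for OST3 (−0.0186), PMT1 (−0.1034), HNT1 (−0.2229), IRE1 (−0.2524) and EUG1 (−0.3082). That scaling shifts the median difference of all genes by −0.4846, so small positive differences become negative. KAR2, whose difference is near 0, was at 0.0157 with DESeq2 size factors and with DESeq2, and between −0.0711 and 0.0433 when 1 replicate was left out, but was called lower under total counts (−0.4916), as was PDI1 (−0.7293). Over the named genes and these alternatives, 83 single results lost the call and 5 gained it.

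With a replicate block 2887 genes differed in mRNA response (1554 higher and 1333 lower). Deviations of same-numbered RNA-seq libraries had correlations of 0.03, −0.26 and 0.04. The value of −0.26 was between the strains at 4 h, and whether these libraries share a batch was not tested. Footprint libraries of the same number deviated together (0.44 to 0.59 over 6 pairs of groups), and there the replicate block gave 3006 genes. The eS7A-WT 0 h library has no replicate in these data and could not be left out.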
